A study of Mus musculus with 4 samples.

Results

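CD8 T cells are the lymphocytes that carry the CD8 coreceptor, and 205 of them were found among 13820 kept cells from the brains of 4 male 5XFAD mice. They were selected on their own reads. A kept cell had at least 40 genes with a read and no more reads than the upper limit of the study, the deepest having 59271, and it was counted as a CD8 T cell when it had reads of 2 or more of the T cell receptor genes Cd3d, Cd3e, Cd3g, Trac and Trbc2, a read of Cd8a or Cd8b1, and no read of Trem2, a receptor of microglia. The 205 cells were 68 and 43 cells from Abi3-/- mice 1 and 2, and 51 and 43 cells from Abi3+/+ mice 1 and 2. They were set against 77 T cells that had no read of Cd8a or Cd8b1, called CD8-negative T cells here, and against the 13538 other kept cells.

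All 4 mice carried the 5XFAD transgenes, human transgenes with familial Alzheimer's disease mutations under the neuronal Thy1 promoter, and all were 9 months old. In the 2 Abi3-/- mice both copies of Abi3, a gene of actin regulation, were null alleles throughout the body, and the 2 Abi3+/+ mice kept both copies. The study's methods also give all experimental mice as heterozygous for a Trem2 variant of the SJL background, so both genotypes share it. Cells came from the right hemisphere without cerebellum after perfusion, cold dissociation and removal of myelin, a protocol that favours glia, with 1 library per mouse and a targeted panel of immune genes. Mouse and library therefore cannot be told apart, and Abi3 is not among the genes of the panel, so the genotype labels were not checked by it.

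CD8 T cells recognise peptides on MHC class I molecules through the T cell receptor and the CD8 coreceptor. On activation they can release granzymes and perforin from granules, display Fas ligand, and secrete interferon gamma and chemokines such as CCL5 and XCL1. Cells of this kind enter the brain from the blood and can stay there as resident memory cells, which is known from ageing, infection and models of amyloid deposition.

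The values are reads per gene and cell, not molecules, and each gene is read through its own amplicon, so levels are compared between cells and never between genes. The CD8 T cells had median depths of 18198 and 17345 reads in Abi3-/- mice 1 and 2 and of 16261 and 20144 reads in Abi3+/+ mice 1 and 2, with a median of 80 to 87 genes per cell. CD8-negative T cells had medians of 10413.5 to 16357.5 reads and the other cells of 19730 to 24757 reads. Intervals below are exact 95% binomial intervals and cover counting error only. Between pairs of libraries 182 cell barcodes were shared, and 0 of them belonged to a CD8 T cell.

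The identity of the cells was checked with genes that the rule did not use. Thy1, a surface protein of T cells, had reads in all 205 cells and in 2.06% to 4.04% of the other cells of a mouse. Lck, the kinase bound to the coreceptor tails, had reads in 97.7% to 100% of the CD8 T cells of a mouse, and Lat, the adaptor below the receptor, in 97.7% to 100%. Among the other cells those shares were 0.616% to 0.992% for Lck and 0.493% to 0.670% for Lat. Cd4, the coreceptor of helper T cells, had no read in any of the 205 CD8 T cells, while 43 of the 77 CD8-negative T cells had one. By counting alone that allows a share of up to 1.46% of cells with a read, which is no limit on the share that express Cd4. Foxp3, the factor of regulatory T cells, was read in 0 of 205 and 4 of 77 cells, and Trdc, of gamma delta T cells, in 4 of 205 and 4 of 77.

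Of the genes that chose the cells, Cd8a had reads in 97.7% to 100% of the members of a mouse and Cd8b1 in 95.6% to 100%. Both coreceptor chains were read in 199 cells, Cd8a alone in 3 and Cd8b1 alone in 3. All 5 T cell receptor genes were read in 176 cells, 4 of them in 26, 3 in 3 and just 2 in 0. Just outside the rule, 0 kept cells without Trem2 had a Cd8 read and a single T cell receptor gene, 3 had a Cd8 read and no such gene, and 16 failed by a Trem2 read alone. The deepest member had 45267 reads.

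Reads of microglial genes were rare in the CD8 T cells. C1qa, the complement subunit that microglia make in large amounts, was read in 4.41%, 14%, 5.88% and 4.65% of them in Abi3-/- mice 1 and 2 and Abi3+/+ mice 1 and 2, against 95.9% to 98.3% of the other cells. The microglia list of 7 genes, which holds Trem2 and so was in part set low by the rule, took 0.00759% to 0.0789% of the reads of the CD8 T cells and 14.3% to 21.7% of those of the other cells. Trem2, by the rule, and Adgre1 were at 0 in the CD8 T cells, and 1 cell had reads of both C1qa and C1qb. The neutrophil list took 0% to 0.0430% of their reads, the B cell list 0.0398% to 0.126%, and the list for monocytes or macrophages 0.0511% to 0.0805%, with 1, 4 and 1 cells that had 2 or more genes of the respective list.

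CD8 T cells made up 2.93% of the kept cells (interval 2.28% to 3.70%) in Abi3-/- mouse 1 and 0.956% (0.693% to 1.29%) in Abi3-/- mouse 2. In Abi3+/+ mice 1 and 2 they made up 1.34% (1.00% to 1.76%) and 1.34% (0.973% to 1.80%). The 2 Abi3-/- mice lay on either side of the Abi3+/+ mice, which were alike. The means were 1.94% ± 1.40 (SD, n = 2) in Abi3-/- and 1.34% ± 0.0010 (SD, n = 2) in Abi3+/+, a difference of 0.600 points (two-sided exact permutation test over mice, p = 1). With 2 mice against 2 the smallest p that this test can give is 0.333. Without Abi3-/- mouse 1 the difference was -0.387 points.

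**Figure D1:**
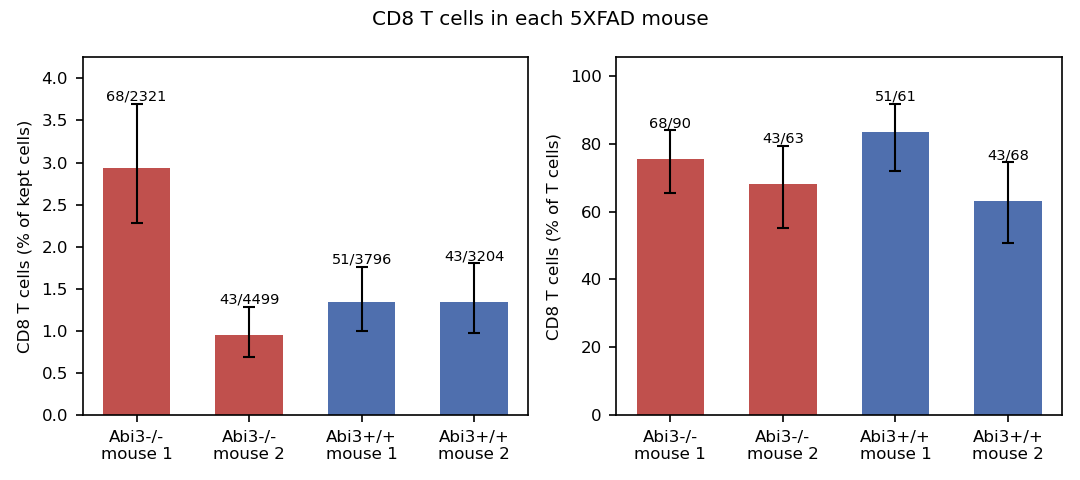
Left, CD8 T cells as a percentage of the kept cells of each mouse; right, as a percentage of its T cells. Bars are single mice, error bars are exact 95% binomial intervals and the counts stand above them. Abi3-/- mouse 1 is highest on the left at 2.93%, and the genotypes overlap in both plots.

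CD8 T cells were the larger class of T cells in every mouse. They were 75.6% and 68.3% of the T cells of Abi3-/- mice 1 and 2, and 83.6% and 63.2% of those of Abi3+/+ mice 1 and 2. The genotypes overlapped, with means of 71.9% ± 5.16 and 73.4% ± 14.4 (SD, n = 2 each) and a difference of -1.52 points (exact permutation p = 1). That sign turned to 2.13 points without Abi3-/- mouse 2 and to 8.67 points without Abi3+/+ mouse 1.

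Among the effectors of killing, Nkg7 and Ctsw were read in nearly every CD8 T cell. Nkg7, a granule membrane protein, was read in 100%, 97.7%, 98% and 100% of the cells of Abi3-/- mice 1 and 2 and Abi3+/+ mice 1 and 2 (mean 98.9% ± 1.25, SD, n = 4), and in 0.225% to 0.319% of the other cells. Ctsw, the protease cathepsin W, was read in 90.7% to 100% and Fasl, the Fas ligand, in 52.9% to 85.3%. In the other cells the shares were at most 0.893% for Ctsw and 0.223% for Fasl. The CD8-negative T cells were closer. Fasl was read in 72.7%, 35%, 20% and 68% of them in Abi3-/- mice 1 and 2 and Abi3+/+ mice 1 and 2. Ctsw averaged 16698 of 1000000 reads in the CD8 T cells and 14781 in the CD8-negative T cells, higher in 2 mice and lower in 2. The pore protein Prf1 was read in only 2.33% to 13.7% of the CD8 T cells, the granzyme Gzmm in 4.65% to 11.8% and Gzma in 0% to 4.65%. A CD8 T cell had reads of a median of 4 to 5 of the 10 genes of this list, and 203 of the 205 cells had 2 or more.

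The granzymes Gzmk and Gzmb varied widely among the mice. Gzmk was read in 67.6%, 0%, 82.4% and 88.4% of the CD8 T cells of Abi3-/- mice 1 and 2 and Abi3+/+ mice 1 and 2. In Abi3-/- mouse 2 its count was 0 in all 6476 barcodes of the library, while the other 3 libraries had 43 to 53 barcodes with it. Whether that library could detect Gzmk was not tested, so no limit is drawn from that 0. The same library stood apart for Lat2, with 6340 reads in all against 112907 to 338070 in the others, and for Qpct, read in 2440 barcodes against 135 to 165. Gzmb was read in 41.2%, 37.2%, 23.5% and 11.6% of the cells in the same order. The CD8 T cells that had it held medians of 118, 114, 107 and 115 reads of it per 10000 reads of the cell, so the mice differed in how many cells had Gzmb, with like medians within those cells.

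Chemokines came next. Ccl5 was read in 100%, 93%, 98% and 97.7% of the CD8 T cells and held medians of 899, 750, 950 and 1088 of every 10000 reads of a cell that had it, in Abi3-/- mice 1 and 2 and Abi3+/+ mice 1 and 2. Xcl1, the ligand of the dendritic cell receptor XCR1, was read in 81.4% to 86.8%. Ccl4 was read in 11.8% to 27.9%, and Ccl3 in 0% to 1.96%. In the other cells the shares for Ccl4 and Ccl3 were 26.9% to 32.6% and 30.9% to 42.7%, so of these 4 chemokines Ccl5 and Xcl1 had higher shares in the CD8 T cells of every mouse.

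Receptors for migration and residence followed. Cxcr6, a receptor of resident memory cells, was read in 95.6%, 90.7%, 90.2% and 88.4% of the CD8 T cells, and Cxcr3, the receptor for interferon-induced chemokines, in 94.1%, 86%, 92.2% and 81.4%. The integrin chain Itga4 was read in 66.7% to 83.7%, and Itgae, the CD103 chain that binds E-cadherin, in 47.1%, 39.5%, 33.3% and 20.9%. The activation and retention antigen Cd69 was read in 16.3% to 32.4% and Cd44 in 21.6% to 44.1%. Ccr7, a receptor of recirculating cells, was read in 5.88% to 16.3%, while Tcf7, the factor TCF1 of naive and memory cells, was read in 57.4% to 81.4% and Il7r in 32.6% to 55.8%.

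Inhibitory receptors varied by gene. Pdcd1 (PD-1) was read in 10.3%, 14%, 5.88% and 11.6% of the CD8 T cells of Abi3-/- mice 1 and 2 and Abi3+/+ mice 1 and 2, below the share in the other cells of the same library in each of 3 mice (16.6%, 27.8% and 9.13%) and above it in Abi3+/+ mouse 2 (9.92%). Lag3 was read in 0% to 8.82% of them and in 64% to 85.7% of the other cells, and Havcr2 (TIM-3) in 0% to 2.94% and 76% to 83.6%. Tigit has 2 rows in the tables, and the first was read in 16.3% to 52.9% of the CD8 T cells and in at most 0.0896% of the other cells. Ctla4 was read in 7.84% to 23.5% and Btla in 5.88% to 11.6%, against at most 0.0803% and 0.638% of the other cells. Of the 205 cells 92 had no read of any of the 7 rows of this list and 49 had reads of 2 or more. The cytokine Ifng was read in 4.41% to 20.9%, and Mki67, a marker of dividing cells, in 8 of 205.

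**Figure D2:**
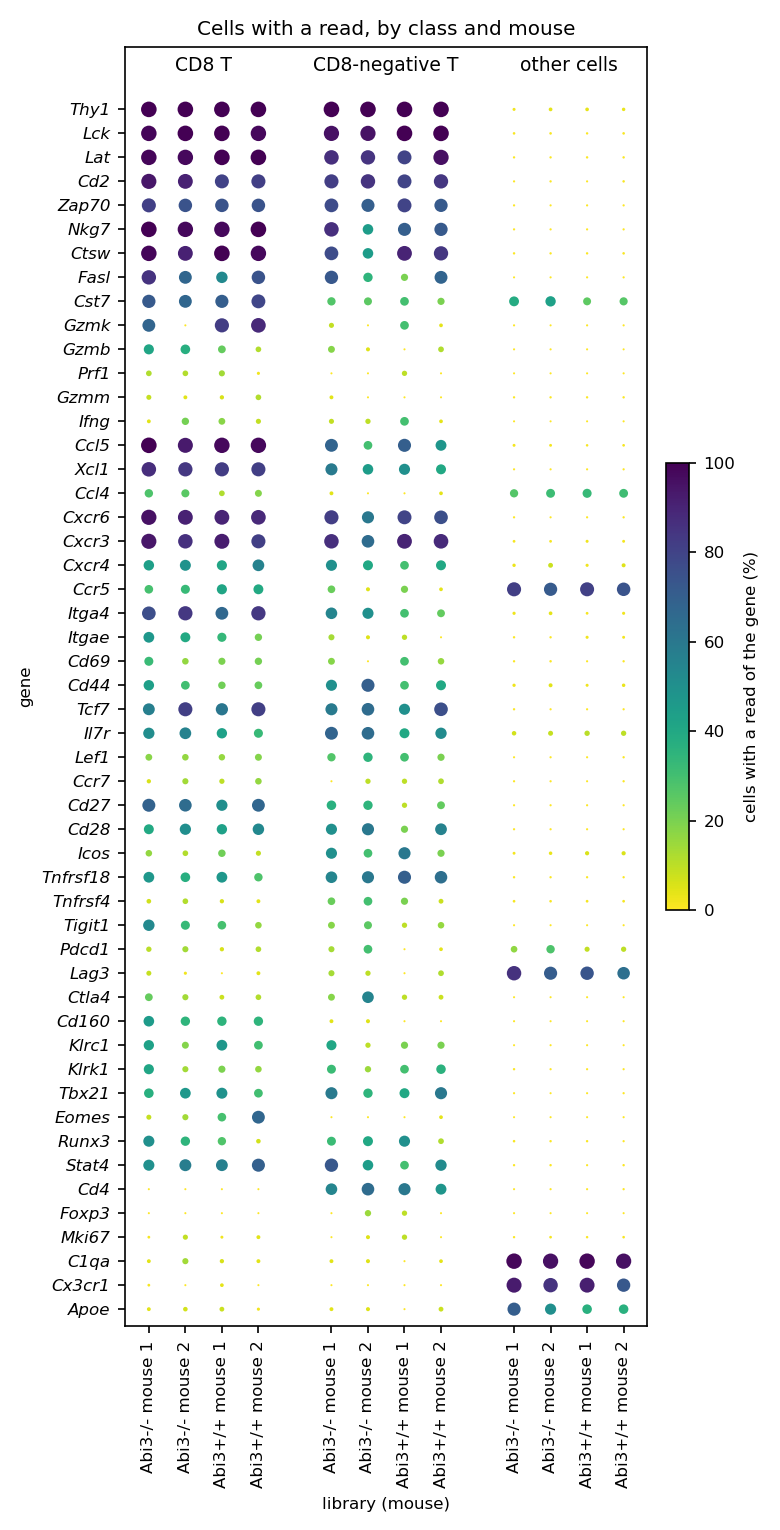
Each dot is the percentage of cells of 1 class in 1 mouse with a read of the gene, given by size and colour; columns are the 4 mice within CD8 T cells, CD8-negative T cells and other cells. Nkg7, Ccl5, Ctsw, Cxcr6 and Xcl1 are read in most CD8 T cells of every mouse, Gzmk is at 0 in Abi3-/- mouse 2, and C1qa is read in most of the other cells only.

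The next comparison asked how CD8 T cells differ from the T cells without CD8 reads in the same mouse. Reads were summed per class and mouse and compared with edgeR's quasi-likelihood test with the mouse as a block, over 226 genes other than those of the rule. At an adjusted p under 0.05, 4 genes were higher in the CD8 T cells, which is 1.77% of those tested, and 4 were lower, again 1.77%. Higher were Ccl5, Nkg7, Cst7 and Eomes, and lower were Cd4, Icos, Tnfrsf4 and Tnfrsf9, in all 4 mice in each case. Eomes, Cd4 and Tnfrsf9 were at or near 0 in one class and passed the filter on low counts through the other alone, so they had to differ, and their values are given with no p. The CD8-negative class is small, with 22, 20, 10 and 25 cells, and it mixes cells with and without a Cd4 read.

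Ccl5 stood at 103255 and 81949 CPM (reads per 1000000 reads of the class) in the CD8 T cells of Abi3-/- mice 1 and 2 and at 97399 and 113417 in those of Abi3+/+ mice 1 and 2, against 48380, 14220, 25188 and 13714 in the CD8-negative T cells. The classes did not overlap, and the log2 fold change was 2.47 ± 0.376 (SE, n = 4 mice, edgeR adjusted p = 0.0287). Nkg7 stood at 41688, 42984, 37656 and 47575 against 23806, 9797, 8793 and 28524 CPM. These values did not overlap either, with a log2 fold change of 1.76 ± 0.283 (SE, edgeR adjusted p = 0.0294). Cst7, which encodes cystatin F, an inhibitor of the proteases that activate granzymes, stood at 3742, 3984, 4698 and 6190 against 633, 1404, 1308 and 1712. Its log2 fold change was 2.26 ± 0.271 (SE, edgeR adjusted p = 0.0150), and it was read in 67.4% to 79.1% against 20% to 30% of the cells.

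Eomes, a T-box factor of effector and memory CD8 cells, was read in 56 of 205 CD8 T cells (27.3%, interval 21.3% to 34%) and in 1 of 77 CD8-negative T cells (1.3%, 0.0329% to 7.02%). It was higher in the CD8 T cells of all 4 mice. Its fitted fold change rests on a class nearly at 0 and is not given. The 4 mice were far from alike, at 195, 363, 1593 and 3539 CPM in the CD8 T cells.

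Cd4 had no read in 205 CD8 T cells and a read in 55.8% of the CD8-negative T cells. Icos, a costimulatory receptor of helper T cells, stood at 401, 315, 686 and 313 CPM in the CD8 T cells and at 2649, 2557, 3415 and 1741 in the CD8-negative T cells. It fell by 2.31 ± 0.380 on the log2 scale (SE, edgeR adjusted p = 0.0294). Tnfrsf4 (OX40), a receptor of activated CD4 T cells, fell by 3.24 ± 0.549 (SE, edgeR adjusted p = 0.0299), from 731 to 8324 CPM to 98.9 to 284. The upper end of the first range is Abi3-/- mouse 2. Tnfrsf9 (4-1BB), a costimulatory receptor of activated T cells, was read in 1 of 205 against 8 of 77 cells.

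**Figure D3:**
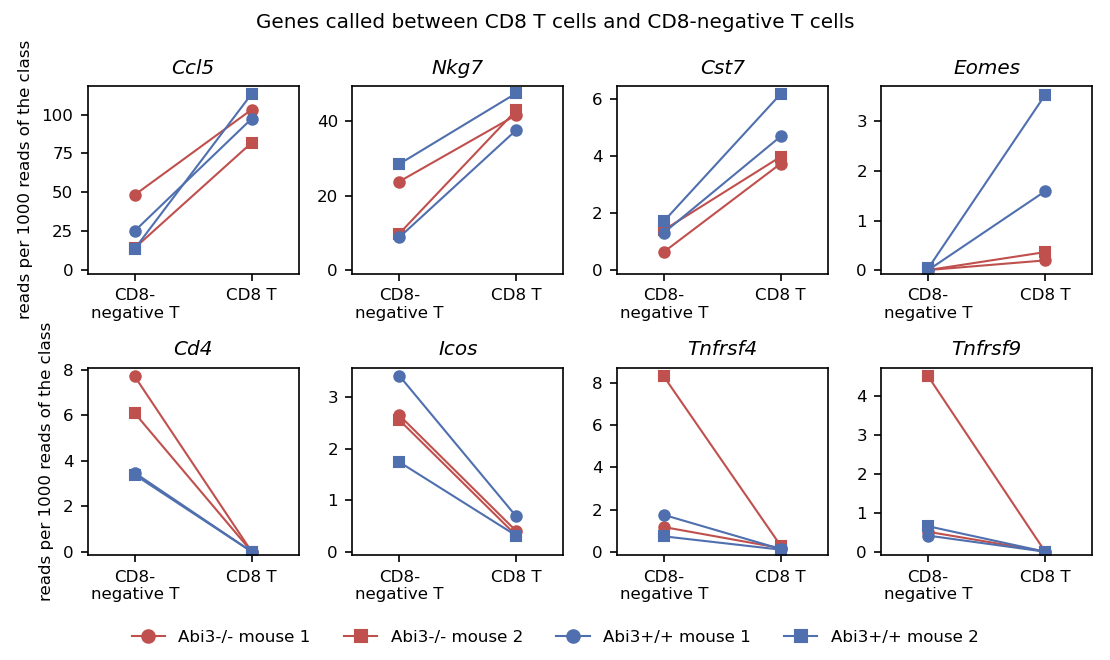
Reads per 1000 reads of the class for the 8 genes called between the classes, with a line for each mouse from its CD8-negative T cells to its CD8 T cells. Every line of the upper row rises and every line of the lower row falls, and Eomes rises most in the Abi3+/+ mice.

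All 8 were called again with reads thinned to 5000 per cell and with DESeq2, and 7 of the 8 without Abi3-/- mouse 1. Among the 8, Eomes, Cd4 and Tnfrsf9 had to differ, so their calls in these and the following fits show nothing about stability. The genes that can show it are Ccl5, Nkg7, Cst7, Icos and Tnfrsf4, all called again after thinning and with DESeq2. With edgeR 0 of the 8 were called without Abi3-/- mouse 2, where 20 of 232 genes had an unadjusted p under 0.05. The count was 1 without Abi3+/+ mouse 1 and 1 without Abi3+/+ mouse 2, and in both fits that gene was Cd4. Ccl5, Nkg7, Cst7, Icos and Tnfrsf4 were thus not called without Abi3-/- mouse 2, Abi3+/+ mouse 1 or Abi3+/+ mouse 2. With limma 5 of the 8 were called, and 5 with CD8-negative T cells limited to those with a Cd4 read. In the latter fit Cd4 was among the 5, and its call was fixed by that choice of cells. No fit changed the direction of any of the 8. Omitting TMM moved the median log2 fold change of all genes from 0.12 to -0.20, and 7 of the 8 were still called, all but Nkg7 (adjusted p = 0.0565).

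Of the 9 tested genes of the cytotoxic effector list 2, Nkg7 and Cst7, were higher and 0 lower, where 1.77% of all genes were higher. The median log2 fold change of the list was 2.26, which is the value of Cst7, against 0.12 over all genes tested. Cst7 stands in this list although it encodes an inhibitor. Gzmk did not pass the threshold at 4527, 0, 9074 and 9175 against 84.2, 0, 1923 and 278 CPM (edgeR adjusted p = 0.0719, and 0.197 without Abi3-/- mouse 2). Gzmb did not pass either, with 8781, 5860, 3921 and 1547 against 543, 557, 0 and 2828 CPM (adjusted p = 0.313), where Abi3+/+ mouse 2 had the higher value in its CD8-negative T cells. Among 3 tested chemokines 1, Ccl5, was higher, against the same 1.77%, and Xcl1 gave 1.21 ± 0.261 (SE, edgeR adjusted p = 0.0719). Cd160, an NK-type receptor, was read in 45.6%, 34.9%, 35.3% and 34.9% of the CD8 T cells and in 4.55%, 5%, 0% and 0% of the CD8-negative T cells. It was not called, and as it passed the filter on low counts through the CD8 T cells, no p is given.

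Of 7 tested costimulatory receptors 3 (Icos, Tnfrsf4 and, through the CD8-negative T cells alone, Tnfrsf9) were lower and 0 higher, where 1.77% of all genes were lower, with a median of -2.31. The exception in sign was Cd27, a receptor kept by memory cells, at 1.43 ± 0.470 (SE, edgeR adjusted p = 0.215). Of 9 genes tested in the helper, regulatory and gamma delta list 3 were lower (Cd4, again through 1 class alone, Icos and Tnfrsf4, of which Icos and Tnfrsf4 stand in both lists) and 0 higher, with a median of -2.94. None of the 7 genes of residence and adhesion, the 12 of the T cell receptor and its signalling, the 9 cytokine receptors, the 7 chemokine receptors or the 6 naive and central memory genes that were tested was called. Nor was any of the 4 NK-type receptors, 6 rows of checkpoint receptors, 9 cell cycle genes, 6 immediate early genes or 6 interferon response genes. Among T cell factors 1 of 10, Eomes, was higher, through the CD8 T cells alone.

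Promoter sequences are shown for those called genes that were higher in the CD8 T cells and have an entry in the RefSeq table for GRCm38.p6, the assembly that mm10 stands for, since the letters bound by RUNX and T-box factors can be looked for in them. In the copy of that table used here 5 of the 8 called genes had an entry. Ccl5, Cd4 and Icos had none in that copy, which does not mean that RefSeq lacks them. Each window runs from 250 bases before to 50 bases after the start site on its own strand, 5′ to 3′. Capitals mark TGTGGT, a core of RUNX sites, or GGTGTGA, a core of T-box sites, on either strand, and no matches overlapped. The windows are Nkg7 at chr7:43436888-43437187, Cst7 at chr2:150570165-150570464 and Eomes at chr9:118477939-118478238, all on the plus strand.
Nkg7: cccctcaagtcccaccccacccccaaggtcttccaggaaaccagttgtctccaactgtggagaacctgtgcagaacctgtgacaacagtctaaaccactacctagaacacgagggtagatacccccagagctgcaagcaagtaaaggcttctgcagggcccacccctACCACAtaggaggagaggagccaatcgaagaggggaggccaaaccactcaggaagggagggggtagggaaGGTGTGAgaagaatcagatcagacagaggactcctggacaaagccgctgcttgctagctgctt
Cst7: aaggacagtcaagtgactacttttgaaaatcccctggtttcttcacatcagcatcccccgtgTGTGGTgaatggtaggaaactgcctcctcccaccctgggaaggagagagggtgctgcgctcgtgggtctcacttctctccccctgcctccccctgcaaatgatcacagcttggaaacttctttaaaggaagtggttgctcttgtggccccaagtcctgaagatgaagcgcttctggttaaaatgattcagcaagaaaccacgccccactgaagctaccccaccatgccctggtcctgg
Eomes: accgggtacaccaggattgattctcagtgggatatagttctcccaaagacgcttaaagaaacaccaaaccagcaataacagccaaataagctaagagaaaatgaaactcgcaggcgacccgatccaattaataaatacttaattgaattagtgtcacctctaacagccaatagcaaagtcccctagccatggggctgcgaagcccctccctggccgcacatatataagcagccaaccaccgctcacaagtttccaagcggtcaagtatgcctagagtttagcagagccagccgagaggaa

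The Nkg7 window held 1 match to TGTGGT, on the minus strand, and 1 to GGTGTGA. The Cst7 window held 1 match to TGTGGT, and the Eomes window held no match to either. Among all 32851 windows of that length in the table, TGTGGT was found in 16.8% and GGTGTGA in 3.98%. Of the genes that were lower, neither motif was found in the window of Tnfrsf4 or in the first of 2 windows of Tnfrsf9, whose second window held 1 TGTGGT. A match to letters is a description of the window and not evidence of binding.

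Against the other kept cells, of which 95.9% to 98.3% had a C1qa read, the contrast was broad. Over 343 genes tested in the same way, 78 were higher in the CD8 T cells (22.7%) and 150 lower (43.7%). The median log2 fold change over all genes was -2.09, and it was -0.70 without TMM, where 106 were higher and 89 lower. All 12 genes of the T cell receptor and its signalling were higher (edgeR adjusted p of 0.000345 to 0.0230, with Lck at the lower and Trbc1 at the upper end). As the rule chose the cells by reads of T cell receptor genes, these 12 were in part chosen high. Of 9 tested genes of the cytotoxic effector list 7 were higher and 1, the inhibitor Cst7, was lower.

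Among genes higher in all 4 mice, those with the largest fitted folds were Klrc1, Gzmb, Eomes, Il12rb1, Trbc1, Cd160, Tigit in its first row, Fasl, Nkg7 and Gimap7. They encode an NK-type receptor, a granzyme, a T-box factor, a chain of the interleukin 12 receptor, a receptor constant chain, an NK-type receptor, a checkpoint receptor, Fas ligand, a granule protein and a GTPase of lymphocytes. Their order rests on levels near 0 in the other cells and changed with the processing: over the alternatives Il12rb1 ranged from 0.72 to 10.22 and Nkg7 from 7.79 to 9.54. Trbc1 lost the call in 3 of 13 alternatives, Klrc1, Il12rb1 and Tigit in its first row each in 2, and Eomes in 1. Nkg7 gave 8.15 ± 0.434 and Fasl 8.26 ± 0.859 on the log2 scale (SE, edgeR adjusted p = 0.000345 and 0.00128). The rule for named genes gave Adgre1, Ccl6, Slc7a7, Ccl9, H2-Ab1, Cd33, Cxcl16, Ccl2, Nlrp3 and C5ar1 downwards, each at 0 reads in the CD8 T cells. They were tested only because the other cells have them, so their order follows the level there and no fold is given. As cells with a Trem2 read were left out of the class, such genes of microglia were in part chosen low. Adgre1 (F4/80), for instance, was read in 0 of 205 CD8 T cells and in 82.8% of the other cells.

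Cst7 is shared between these T cells and the amyloid-associated state of microglia. It was read in 72.1%, 67.4%, 70.6% and 79.1% of the CD8 T cells and in 39%, 43.1%, 24.8% and 26.2% of the other cells. Its share of cells was thus higher in the CD8 T cells of every mouse while its summed CPM were lower (log2 fold change -1.90 ± 0.345, SE, edgeR adjusted p = 0.00783). Without TMM it was -0.51 and was not called (adjusted p = 0.124), and with limma on the mean log level per cell the sign turned, to 2.04. Of the 6 immediate early genes Fosb, Jun, Junb, Egr1 and Dusp1 were lower, where 43.7% of all genes were, and Dusp2, a phosphatase of activated lymphocytes, was higher, where 22.7% were, at 2.99 ± 0.387 (SE, edgeR adjusted p = 0.00266), read in 72.1% to 86% of the CD8 T cells and 7.12% to 13.2% of the other cells.

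The last comparison set the CD8 T cells of the 2 Abi3-/- mice against those of the 2 Abi3+/+ mice. Over 248 genes edgeR's quasi-likelihood test called 0 (0%), with 6 at an unadjusted p under 0.05 and a lowest adjusted p of 0.780. DESeq2 called 1, Eomes, and limma 0. In 35.9% of the genes both mice of a genotype lay on the same side of both mice of the other. With 2 mice against 2, labels set at random would give a share of 0.333 on average. The common dispersion, a measure of the spread between libraries of a genotype, was 0.975.

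The values of the 5 genes with the smallest p are given as such. Eomes stood at 195 and 363 CPM in Abi3-/- mice 1 and 2 and at 1593 and 3539 in Abi3+/+ mice 1 and 2 (log2 difference -3.20 ± 0.587, SE, n = 2 against 2, edgeR adjusted p = 0.780, DESeq2 adjusted p = 0.000237). It was read in 8.82% (3.31% to 18.2%) and 14% (5.30% to 27.9%) of the cells against 29.4% (17.5% to 43.8%) and 67.4% (51.5% to 80.9%). The genotypes did not overlap, and within each of them the mice also differed, most of all the 2 Abi3+/+ mice.

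Trat1, an adaptor that stabilises the T cell receptor complex, stood at 992 and 1071 against 250 and 269 CPM (log2 difference 2.02 ± 0.483, SE, edgeR adjusted p = 0.978). It was read in 41.2% and 32.6% against 11.8% and 6.98% of the cells, with each genotype's mice close together. Gzmb stood at 8781 and 5860 against 3921 and 1547 (1.49 ± 0.529, adjusted p = 0.978), Anxa5, a phospholipid-binding protein, at 831 and 1270 against 1942 and 2057 (-0.91 ± 0.332, adjusted p = 0.978), and Trbc2 at 25695 and 24275 against 19823 and 13941. Genes of the rule were kept in this comparison, so Trbc2 was among the 248 genes tested and the 6 with an unadjusted p under 0.05. As the rule chose cells by it, its values are given as a description and without a p. None of the others passed the edgeR test, and for each of them the genotypes did not overlap, as for 35.9% of all genes tested.

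For Ccl5 and Nkg7 the fitted differences were smaller than their errors. Ccl5 gave a log2 difference of -0.14 ± 0.213 and Nkg7 of 0.02 ± 0.182 (SE, edgeR adjusted p = 0.978 and 0.999), and the mice of the genotypes overlapped for both. For Pdcd1 the values were 439 and 326 against 261 and 220 CPM (0.72 ± 0.726, adjusted p = 0.978), and for Ifng 196 and 690 against 832 and 236 (-0.27 ± 0.927, adjusted p = 0.978). Gzmk, at 4527 and 0 against 9074 and 9175, gave -1.89 ± 2.38 (adjusted p = 0.978). Its difference was -1.01 without Abi3-/- mouse 2. Without Abi3-/- mouse 1 the Abi3-/- library with no Gzmk read in any cell stood alone. The value of that fit was fixed by the 0 reads and is not given.

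**Figure D4:**
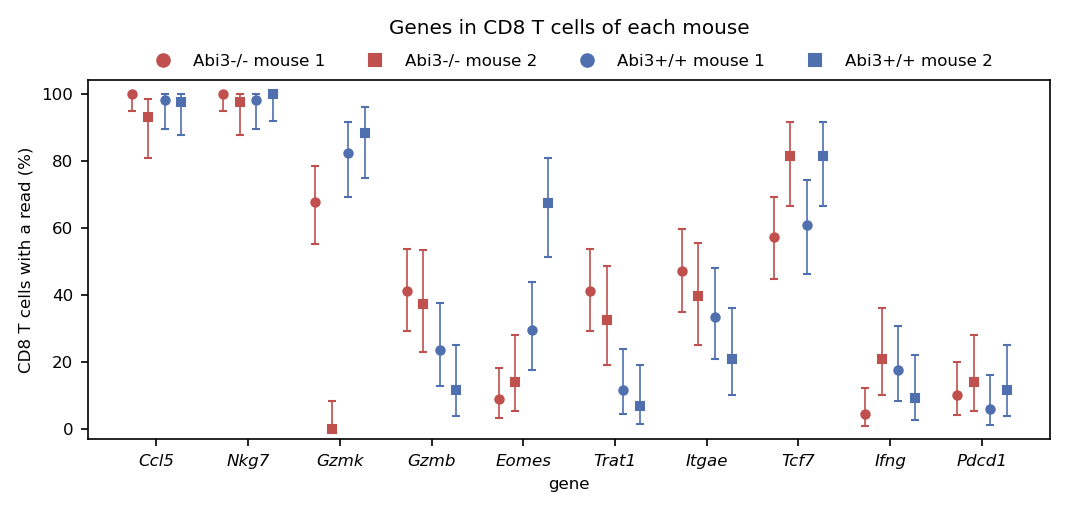
Percentage of the CD8 T cells of each mouse with a read of 10 genes; symbols are mice and error bars exact 95% binomial intervals. Ccl5 and Nkg7 lie near the top in all 4 mice, and Gzmk is at 0% in Abi3-/- mouse 2. The genotypes lie apart in CPM for 35.9% of all genes tested, where labels set at random would give a share of 0.333.

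No list held a gene called between the genotypes. The median log2 difference was 0.10 over the 10 genes of the cytotoxic effector list and 0.72 over 7 rows of inhibitory checkpoint receptors. It was 0.24 over 7 genes of residence and adhesion and -0.33 over 6 naive and central memory genes. Over 6 interferon response genes it was -0.94, beside -0.0041 over all genes tested. The interferon response list took 0.497% and 0.541% of the reads of the CD8 T cells of Abi3-/- mice 1 and 2, 0.577% in Abi3+/+ mouse 1 and 1.33% in Abi3+/+ mouse 2, so 1 library stood apart for it. Abi3+/+ mouse 2 also stood apart for single genes. Ltb, which encodes lymphotoxin beta, was read in 60.3%, 53.5% and 43.1% of the CD8 T cells of Abi3-/- mice 1 and 2 and Abi3+/+ mouse 1 but in 4.65% of those of Abi3+/+ mouse 2, and in 45.5%, 50%, 70% and 8% of the CD8-negative T cells. Il18r1, a chain of the interleukin 18 receptor, had 23.5%, 41.9%, 27.5% and 4.65% in the CD8 T cells and 36.4%, 45%, 50% and 0% in the CD8-negative T cells. The low values of both genes in Abi3+/+ mouse 2 thus stood in both classes of T cells, and whether the mouse or its library accounts for them cannot be told apart.

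Within a mouse, the share of CD8 T cells with a read of a gene is given for cells with and without a read of another gene. Tcf7 was read in 39.3%, 68.8%, 16.7% and 60% of the CD8 T cells with a Gzmb read, in Abi3-/- mice 1 and 2 and Abi3+/+ mice 1 and 2, and in 70%, 88.9%, 74.4% and 84.2% of those without one. The share was lower beside Gzmb in all 4 mice, although just 28, 16, 12 and 5 cells had a Gzmb read, and cells with and without it had median depths of 19078.5 against 18108.5 reads in Abi3-/- mouse 1 and of 14974.5 against 17308 in Abi3+/+ mouse 1. Itgae was read in 16.7%, 16.7%, 26.7% and 17.2% of the cells with an Eomes read and in 50%, 43.2%, 36.1% and 28.6% of those without. The cells with Eomes numbered 6, 6, 15 and 29, so the values of the Abi3-/- mice are 1 of 6 cells each. Of the cells with a Gzmk read, 13%, 33.3% and 73.7% had Eomes in Abi3-/- mouse 1 and Abi3+/+ mice 1 and 2, against 0%, 11.1% and 20% of those without. The cells without Gzmk were few, at 22, 9 and 5, and in Abi3+/+ mouse 1 they had a median of 9596 reads against 17328.5 in those with it. These pairs were chosen after their values were seen and are given with no test.

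**Figure D5:**
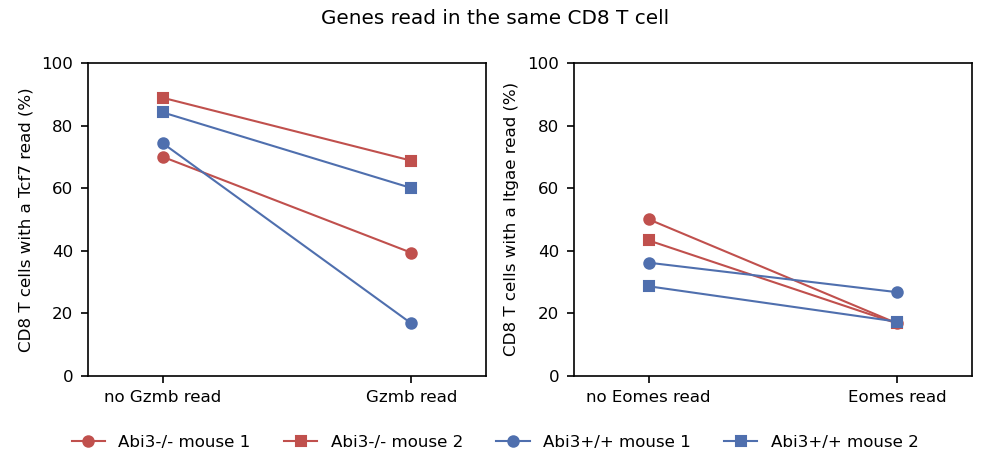
Left, percentage of CD8 T cells with a Tcf7 read among cells without and with a Gzmb read; right, percentage with an Itgae read among cells without and with an Eomes read. Each line is a mouse, and all 4 lines fall in both plots.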

How the data were processed

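Brain cells of 2 Abi3-/- and 2 Abi3+/+ mice were profiled with the BD Rhapsody Mouse Immune Response Panel, with 397 rows in the tables. The authors ran the BD Rhapsody Targeted Analysis Pipeline at default settings, which corrects errors by the distribution of reads, and deposited its counts of whole reads for each gene in each cell. Its version is not given in the sources used here, and the submitters' processing notes name the build mm10. Such reads are not molecules, and reads of a cell are not independent. No unmapped column was used. The tables held 21172 barcodes, with 61058416 and 102612276 reads in the kept cells of Abi3-/- mice 1 and 2 and 82557555 and 78817636 in those of Abi3+/+ mice 1 and 2. No doublet caller was run; the limits on genes, reads and Trem2 were the only filters, and the lower limit is the study's filter read as genes with a read.

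Read counts were summed per mouse and class and tested in R 4.3.3 with edgeR 4.0.16 (default filter on low counts, TMM, quasi-likelihood test), with the mouse as a block between classes and no block between genotypes. P-values were adjusted by Benjamini-Hochberg over all genes tested, without the 8 genes of the rule between classes, at a threshold of 0.05, and standard errors come from the fold change and the F value. Between genotypes the edgeR p-values set a difference against the spread between libraries. Between classes they set the difference within a mouse against its variation over the 4 mice. Shares were compared by exact permutation over mice. Named genes were members of 19 lists given by counts and examples, the 10 called genes of largest fold in each direction with the same sign in all 4 mice, the 5 of smallest p where none was called between genotypes, and Ccl5, Nkg7, Gzmb, Gzmk, Pdcd1 and Ifng. Ltb, Il18r1, Lat2 and Qpct were named after their values were seen. The members, lists and tests were chosen with earlier results of these data known. Alternatives were no TMM, no filter, DESeq2 1.42.0, limma 3.58.1 on log levels scaled to 10000 reads per cell, 5 reads or 3 genes for the rule, no limits on cells, Trem2 reads allowed, cells with C1qa and C1qb left out, thinning to 5000 reads, CD8-negative T cells with a Cd4 read only, adjustment with the rule's genes, and each mouse left out. The 2 libraries of a genotype were not copies of one another (chi-square per degree of freedom 158 and 173 on summed reads). As reads of a cell are not independent, these values do not measure a difference beyond sampling noise. Some items are not reported here.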

Additional observations from a re-analysis of the deposited data

Results flagged for a closer look

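Cells that meet the gene rule for CD8 T cells were also found outside the class. In data that no comparison above used there were 5 such cells among those with under 40 genes and 1 among those past the upper limit on reads. Another 16 kept cells met the rule but for a Trem2 read, against 205 that met it in full, and they stood among the other cells. With Trem2 reads allowed, the difference between the genotypes in the share of CD8 T cells was 0.578 points, and with no limits on cells it was 0.489 points, beside 0.600 points as reported.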

How the results depend on the processing

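The share of CD8 T cells among kept cells differed between the genotypes by -0.387 to 1.59 points when each mouse was left out and by 0.489 to 0.613 points in the other settings, and the share among T cells by -11.7 to 8.67 points and by -1.99 to -0.0929 points. Between the genotypes DESeq2 called 1 gene. With a mouse left out, 1 genotype holds a single library, so no count of calls is given for those fits. Against CD8-negative T cells the numbers higher and lower were 20 and 14 with DESeq2, 13 and 7 with limma, 6 and 7 after thinning, and 0 to 5 and 0 to 3 with a mouse left out. Against the other cells 89 were lower without TMM, and 98 to 125 with a mouse left out. Between genotypes Nkg7 changed sign at -0.0095 without TMM, -0.040 without the filter, -0.0010 with DESeq2, -0.088 with limma, -0.054 after thinning and -0.22 to 0.17 with a mouse left out, and Ifng at -1.43 to 0.84 with a mouse left out. The log2 fold change of Cst7 against the other cells was 2.04 with limma. The cause was not tested. Requiring 5 reads or 3 T cell genes gave the same CD8 T cells. Replicate numbers are shared between the genotypes with nothing to pair the mice, and with the replicate block 0 genes were called, while 7 of those tested had an unadjusted p under 0.05 (correlation of same-numbered deviations 0.21 over 248 genes).

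The CD8-negative T cells were 10 to 25 per mouse, and each genotype had 2 mice, which limits the precision of every comparison.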
